A study of Mus musculus with 8 samples.

Results

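Hoxb7-GFP cells of 2 early stages, E8.75 and E9.5, are described here from mouse embryos of the ICR strain. The embryos carried a Hoxb7-GFP transgene, a green fluorescent reporter driven by the promoter of Hoxb7, which marks the nephric duct and the ureteric bud. The sorted cells also carried markers of other cell types, such as endothelial and neural genes, given below. The samples were taken by their labels: every array of Hoxb7-GFP cells at E8.75 or E9.5, which gave 3 arrays of the 6 of Hoxb7-GFP cells and of the 8 in the whole series. The E8.75 sample was 1 array of GFP-positive cells from undivided embryos. The E9.5 sample was 2 arrays of GFP-positive cells that lacked Flk1 (the receptor encoded by Kdr, found on endothelial cells), 1 from the rostral and 1 from the caudal part of the duct. The title of the E8.75 sample does not mention a selection against Flk1, whereas the design text of the series describes the Flk1-negative gate for duct precursors without naming an exception. The sources used here do not say how many embryos were pooled, nor that the arrays came from separate animals. The other arrays held Hoxb7-GFP cells of E10.5 and E11.5 and Wt1-GFP cells of E9.5 intermediate mesoderm, and they entered the estimate of the spread and, for a few genes, are given beside the 3 arrays.

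The nephric duct, also called the Wolffian duct, arises from the intermediate mesoderm. Its precursors separate from the mesoderm as a cord, which turns into an epithelial tube while its tip migrates caudally towards the cloaca. Near the hindlimb the duct later sends out the ureteric bud, from which the collecting ducts of the kidney and the ureter form. Pax2, Pax8, Lhx1 and Gata3 encode transcription factors needed for the duct to form or extend, and Ret encodes the receptor for the growth factor GDNF that guides its tip.

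A level in this account is a log2 signal relative to the 75th percentile of its array, so that a level of 0 is the 75th percentile. A difference is a level on an E9.5 array minus the level on the E8.75 array. A gene was called higher where both E9.5 parts were at least 4-fold above E8.75 and well above background, and lower where both were at least 4-fold below and E8.75 was well above background. Of 29541 names, 618 (2.09%) were called higher and 512 (1.73%) lower, and the median difference over all names was -0.01. These calls describe 3 arrays and carry no error estimate. In limma, fitted over all 8 arrays with 2 residual degrees of freedom, 0 names (0%) passed an adjusted p of 0.05, the lowest adjusted p being 0.19, while 4602 names had an unadjusted p under 0.05. With an intensity trend in limma's prior, 184 names passed as higher (0.623%) and 192 as lower (0.65%), but 0 did once the slide row was a block or once the caudal E9.5 array or either E10.5 array was left out. With the position term in the fit, p-values measure only how the rostral minus caudal difference varied among the 3 split groups, and an exact permutation test of 1 array against 2 could not go below 0.33.

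On the 3 arrays, 67.1% to 67.3% of probes were well above background and 0 were saturated. The E8.75 array correlated with the rostral E9.5 array at r = 0.923 and with the caudal one at r = 0.93, and the E9.5 arrays correlated with each other at r = 0.949, across probes, which are not independent replicates. All 3 arrays lay in the same row of 1 slide. The reporter's own gene was measured on each: Hoxb7 was at 1.64 at E8.75, 2.44 in the rostral part and 2.30 in the caudal part. Both E9.5 values lay above the E8.75 value, 1.65-fold on average, which did not meet the 4-fold rule.

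The transcription factors that define the duct were already well above background at E8.75, and a second set was far higher at E9.5. Of 13 duct factors, 12 were well above background at E8.75 and 13 on each E9.5 array. Most names were: 25146 of 29541 at E8.75, 24889 in the rostral and 25014 in the caudal part. These are the background for every such count of a list below. The fold rule called 3 of the 13 higher (background 2.09%) and 0 lower, and the list's median difference was 0.58.

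Pax2 was at 5.69 at E8.75, 5.18 in the rostral part and 5.36 in the caudal part. Lhx1, a LIM homeodomain factor, was at 4.51, 3.1 and 3.69 in the same order. Gata3, a zinc finger factor, was at 2.85, 1.69 and 3.00. On the probes used, the E8.75 array was the highest of the 3 for Pax2 and Lhx1. It lay above the mean of the E9.5 arrays by 1.34-fold and 2.16-fold. Another Pax2 probe was lowest at E8.75, at 2.77, 3.47 and 3.59, a difference of 0.76, and a further one differed by -0.16. The direction for Pax2 therefore depended on the probe. For Gata3 the E8.75 value lay between the E9.5 values. Pax8, a paralogue of Pax2, was at 2.35, 1.30 and 0.03, so that its E8.75 level was above both. Sall1, a zinc finger repressor, was at 4.50, 2.52 and 1.29, again highest at E8.75. Sim1 (1.46, 1.87 and 1.63), Emx2 (1.17, 1.43 and 2.07), Mecom (1.99, 2.63 and 2.68) and Tfap2a (1.60, 2.08 and 2.42) were slightly higher in both E9.5 parts, by 1.22-fold to 1.59-fold.

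Tfap2b, which encodes an AP-2 transcription factor, had the largest difference of any name called higher. It was at -6.96 at E8.75, not well above background, and at 3.79 in the rostral and 3.51 in the caudal part. The E9.5 arrays lay within 0.28 of each other and at least 315-fold above E8.75. This bound is the E9.5 mean against the dimmest level counted as well above background on the E8.75 array, -4.65. Every fold written with "at least" is made this way: on each array where the gene was not well above background, its level is replaced by that array's dimmest well-above level (-4.37 on the rostral and -4.88 on the caudal E9.5 array), unless its own level is higher (floored values). The difference was 10.61 with a limma SE of 0.74 (adjusted p = 0.19, and 0.044 with the intensity trend). At later stages Tfap2b was at 4.75 and 3.21 in the E10.5 parts and 4.71 at E11.5, whereas it was not well above background on either Wt1-GFP array. Tfap2b therefore stood well above background on 5 of the 6 Hoxb7-GFP arrays, E8.75 being the exception.

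Tfcp2l1, a grainyhead-related factor of collecting duct epithelium, was at -3.76, 1.19 and 0.49, which was 24.3-fold higher, although a second probe of Tfcp2l1 differed by only 0.93 on the log2 scale. Grhl2, a grainyhead factor of epithelia, was at 0.92, 2.08 and 4.0. Its rostral part was less than 4-fold above E8.75, so it was not called.

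**Figure D1:**
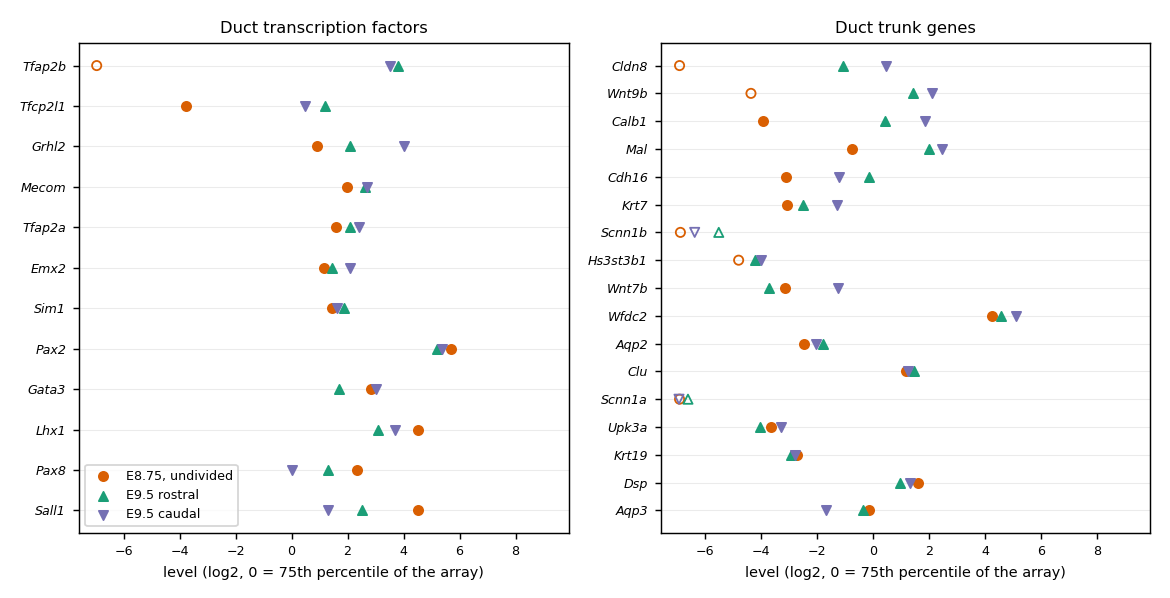
Levels (log2, 0 being the 75th percentile of the array) of 12 duct transcription factors and 17 duct trunk genes on the 3 arrays, each point being 1 array and open points not well above background. Tfap2b and Tfcp2l1 lie far to the right at E9.5, while Pax2 stays between 5.18 and 5.69 on all 3 arrays.

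Some genes of the duct's later trunk were higher too. Of 17 trunk genes measured, 4 were called higher (background 2.09%) and 0 lower (1.73%), with a median difference of 0.67. Of these 17, 3 were below E8.75 in both parts (background 39.9%). Wnt9b, the duct-derived Wnt ligand that acts on the neighbouring nephrogenic mesenchyme, was at -4.37 at E8.75 (not well above background), 1.40 in the rostral and 2.10 in the caudal part, at least 69.7-fold higher. Cldn8, a tight junction claudin, was at -6.92 (not well above background), -1.08 and 0.46, at least 20.2-fold higher. Calb1, a calcium-binding protein of the duct, was at -3.95, 0.40 and 1.83, 33.5-fold higher, and its second probe differed by 1.79. Mal, a protein of apical membrane traffic, was at -0.75, 1.99 and 2.47. In these 4 genes the caudal E9.5 array lay above the rostral one. Cdh16, the kidney cadherin, was at -3.12, -0.14 and -1.21, so that only the rostral part passed 4-fold.

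Genes of the ureteric bud tip, the part that responds to GDNF, differed less. Of 16 measured, 1 was called higher (background 2.09%) and 0 lower (1.73%), with a median difference of 0.10. The called gene was Myb, a transcription factor, at -2.23, -0.18 and 0.10. Ret was at 2.12 at E8.75, -0.66 in the rostral and 2.23 in the caudal part. The E8.75 value lay next to the caudal one, and the rostral minus caudal difference was -2.9. Etv4 and Etv5, ETS factors downstream of Ret and FGF signalling, were likewise lowest in the rostral part, but highest at E8.75: Etv4 was at 4.73, 2.87 and 4.25 and Etv5 at 4.30, 2.98 and 4.19. Gfra1, the co-receptor of Ret, was at 1.04, 0.02 and 1.71. Of the 16 tip genes, 9 were at least 2-fold brighter in the caudal than in the rostral part and 1 the other way, against 6.83% and 11.1% of all names.

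Epithelial genes had the largest share of genes called higher among the 33 lists. Of 29 measured, 16 were called higher (background 2.09%) and 0 lower, 27 were above E8.75 in both parts (background 36.2%), and the median difference was 2.73 log2 units (2.27 in the rostral part, 3.25 in the caudal part). The caudal array was the brightest of the 3 for 25 of the 29 genes (background 22.9%). At least 2-fold brighter there than in the rostral part were 13 (background 6.83%), and 0 the other way (11.1%). The count of genes called higher was 11 with the normexp background correction. The list held regulators, adhesion molecules, tight junction proteins, keratins, polarity proteins and membrane proteases, and members of each kind were called.

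Among the regulators, Esrp1, which directs epithelial RNA splicing, was at -2.76 at E8.75, 2.54 in the rostral and 4.08 in the caudal part. It was 67.4-fold higher at E9.5 (limma SE of the log2 difference 0.58, adjusted p = 0.19), and a second probe differed by 3.86 on the log2 scale. Kdf1, a regulator of epidermal differentiation, was at -4.41, 0.77 and 1.19, 41.9-fold higher. Both genes had the E8.75 array far below the E9.5 pair, whose values differed by much less.

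Among the adhesion molecules, Epcam was at -0.84 at E8.75, 2.62 in the rostral and 4.44 in the caudal part, 20.7-fold higher (limma SE of the log2 difference 0.63, adjusted p = 0.21). Cdh1, which encodes E-cadherin, was at -6.46 (not well above background), -2.26 and -2.39, at least 5.01-fold higher. Unlike Epcam, Cdh1 was at nearly the same level in both E9.5 parts. On the E10.5 and E11.5 arrays Epcam was at 4.62, 4.84 and 4.85 and Cdh1 at -0.47, -1.04 and -1.07, whereas on the Wt1-GFP arrays Epcam was at -2.93 and -1.13 and Cdh1 was not well above background.

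Among the tight junction genes, Cldn6 was at 4.70, 6.95 and 7.91, so it was well above background at E8.75 and still 6.66-fold higher at E9.5. Cldn4 was at -2.59, 0.22 and 2.45, and Cldn3 at -6.92 (not well above background), -2.30 and -2.14. Cgn, the junctional scaffold cingulin, was at -1.14, 1.70 and 2.53. All of these had the E8.75 array lowest, as the rule requires. By raw levels, Marveld3 had the largest difference of the list, from -6.91 (not well above background) to 0.16 and 0.94. Its bound, at least 36.7-fold, was below the 67.4-fold of Esrp1. The second probe of Marveld3, at -6.96, -6.02 and -5.17, lay below each array's dimmest well-above level and so gave no size.

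Of the remaining called members, Mal2 (43.5-fold) and Ap1m2 (13.8-fold) serve apical and basolateral membrane traffic. Crb3 (14.0-fold) belongs to the complex that sets apical polarity. St14 (30.8-fold) and Prss8 (9.95-fold) encode membrane serine proteases, and Spint2 (6.53-fold) their inhibitor. Krt8 (6.64-fold) encodes a keratin of simple epithelia. Its partner Krt18 (0.52, 2.39 and 3.77) missed the rule in the rostral part only. Not every junction gene was higher: Dsp, which encodes the desmosome protein desmoplakin, was at 1.61, 0.94 and 1.32, highest at E8.75, and Pard6b was at -1.75, -1.67 and -1.90.

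**Figure D2:**
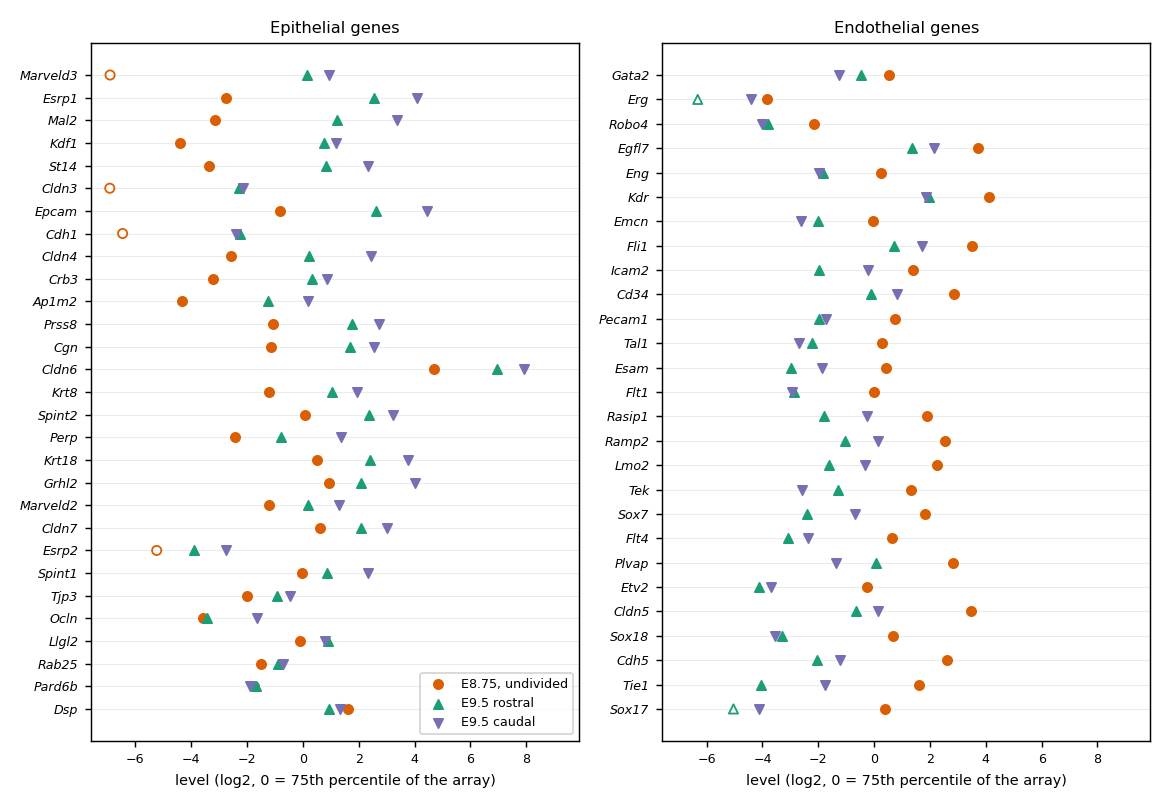
Levels (log2, 0 being the 75th percentile of the array) of 29 epithelial and 27 endothelial genes on the 3 arrays, each point being 1 array, open points not well above background, and genes ordered by difference. The E8.75 points lie to the left of both E9.5 points for 27 epithelial genes and to the right for all 27 endothelial genes.

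The promoters of the called epithelial genes are shown because the letters CAGGTG, an E-box bound by repressors of the Zeb and Snail families, occurred in nearly all that could be read. RefSeq promoter windows (GRCm38.p6, 250 bases before to 50 after the start) were at hand for 10 of the 16 called genes, and 9 of these held CAGGTG on either strand, against 20.0% of the 27025 promoters of the same length. In the bases before the start alone, 7 of 10 held it, against 17.1%. It was not particular to the called members: 7 of 9 readable promoters of epithelial genes that were not called held it too. Of the 618 names called higher, 330 had a promoter and 30.0% of those held the letters, while 1 of 11 readable promoters of the called endothelial genes did. A match describes letters and not binding. The 250 bases before the start of 4 genes with at least 2 matches there follow 5′ to 3′, with each CAGGTG or its reverse complement CACCTG in capitals: Ap1m2 (chr9:21312334-21312583, minus strand), Crb3 (chr17:57061951-57062200, plus strand), Epcam (chr17:87635729-87635978, plus strand) and Spint2 (chr7:29281978-29282227, minus strand).
Ap1m2: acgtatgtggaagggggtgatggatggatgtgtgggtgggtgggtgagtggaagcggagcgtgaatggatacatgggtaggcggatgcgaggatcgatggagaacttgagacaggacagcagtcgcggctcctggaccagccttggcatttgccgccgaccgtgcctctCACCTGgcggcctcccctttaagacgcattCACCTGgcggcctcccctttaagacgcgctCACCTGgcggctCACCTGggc
Crb3: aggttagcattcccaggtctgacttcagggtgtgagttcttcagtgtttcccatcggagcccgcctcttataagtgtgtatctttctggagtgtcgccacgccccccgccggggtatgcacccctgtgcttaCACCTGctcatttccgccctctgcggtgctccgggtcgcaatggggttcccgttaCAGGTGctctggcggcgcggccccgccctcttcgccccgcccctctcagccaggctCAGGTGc
Epcam: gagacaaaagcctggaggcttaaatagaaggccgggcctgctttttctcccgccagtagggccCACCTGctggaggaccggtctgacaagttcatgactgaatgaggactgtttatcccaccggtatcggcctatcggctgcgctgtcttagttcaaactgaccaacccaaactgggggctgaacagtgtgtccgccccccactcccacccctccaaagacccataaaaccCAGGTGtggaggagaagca
Spint2: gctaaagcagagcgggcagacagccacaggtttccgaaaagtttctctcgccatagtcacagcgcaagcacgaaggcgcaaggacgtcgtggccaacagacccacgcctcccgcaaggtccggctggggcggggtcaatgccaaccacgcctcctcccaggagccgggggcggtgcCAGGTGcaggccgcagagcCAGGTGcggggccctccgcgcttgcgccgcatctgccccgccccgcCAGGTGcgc
The window of Ap1m2 holds the letters at 4 places, those of Crb3 and Spint2 at 3 and that of Epcam at 2. Of 3 other motifs searched on both strands of the same windows, AACCNGTT (grainyhead-like) was in 1 of the 10 called epithelial genes (all promoters 2.01%), GCCNNNGGC (AP-2) in 2 (16.5%) and AGGAAGT (ETS) in 2 (9.57%).

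The genes of the mesenchymal state, including those for the E-box repressors, did not move as a group from E8.75, but many differed between the E9.5 parts. Of 21 measured, 0 were called higher (background 2.09%) and 1 lower (1.73%). In both parts, 8 were above E8.75 (background 36.2%) and 10 below (39.9%). The median difference was 0.13 over the mean of both parts, though the medians of the single parts were -0.30 and -0.62. At least 2-fold brighter in the rostral than in the caudal part were 11 (background 11.1%), and 5 the other way (6.83%). Zeb1 was at 3.43 at E8.75, 2.38 in the rostral and 0.30 in the caudal part, and Zeb2 at 1.32, -0.07 and -2.64. Both were highest at E8.75 and lowest in the caudal part, and neither met the rule in the rostral part. Snai2 was at -2.45, -0.23 and -1.23, higher in both E9.5 parts, and Snai1 was not well above background at E9.5. Vim, the intermediate filament vimentin, was at 5.08, 3.33 and 2.43 and Cdh2, N-cadherin, at 6.35, 5.50 and 5.43, both highest at E8.75. The called gene was Meox1, a factor of somites and paraxial mesoderm, at 3.23, -0.07 and 0.32.

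Basement membrane genes split. Of 25 measured, 3 were called higher (background 2.09%) and 1 lower (1.73%). Among them, Lamb2, a laminin chain, was at -3.11, -0.65 and -0.40 (6.0-fold) and Fras1, an extracellular matrix protein needed for kidney formation, at -0.57, 1.45 and 2.22 (5.29-fold). The E9.5 pair was above E8.75 in each, as the rule requires. Frem1, another protein of the Fraser complex, was at -0.17, -3.38 and -2.37, lower in both parts.

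The endothelial list had the lowest median difference of the 33 lists, followed by the list of endoderm and yolk sac. All 27 endothelial genes measured were below E8.75 in both parts, against 39.9% of all names, and 20 were called lower (background 1.73%) and 0 higher. The median difference was -2.90 (-2.96 in the rostral part, -2.53 in the caudal part). All 27 were well above background at E8.75, and so were 25 in the rostral and 27 in the caudal part. Of all 29541 names, 25146, 24889 and 25014 were, in the same order. The endothelial levels summed on the linear scale gave log2 values of 6.83 at E8.75, 3.93 in the rostral and 4.45 in the caudal part. With the normexp background correction, 12 of the 27 were called lower.

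Kdr was at 4.12 at E8.75, 1.95 in the rostral and 1.84 in the caudal part, 4.68-fold lower at E9.5 (limma SE of the log2 difference 0.25, adjusted p = 0.20). Its second probe was at 2.73, -0.79 and -1.44, a larger difference of -3.85. Kdr encodes the antigen of the gate itself. Cdh5, which encodes the adhesion molecule of endothelial junctions, was at 2.61, -2.06 and -1.23, 19.1-fold lower. Pecam1 was at 0.75, -1.97 and -1.71, and Tek, the angiopoietin receptor, at 1.32, -1.31 and -2.59. For each of these defining markers the E8.75 array was the highest, and none of the 4 was at background on an E9.5 array. The stated selection against Flk1 differs between the stages in the same way as the stage does, so that its part and the part of age cannot be told apart. In sorted bulk cells, fewer cells of a type and less RNA per cell cannot be told apart either.

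The factors of the earliest endothelium and blood precursors went with them. Etv2, an ETS factor of the haemangioblast, was at -0.26, -4.13 and -3.71, 12.6-fold lower. Tal1 was at 0.29, -2.21 and -2.68 and Lmo2 at 2.26, -1.61 and -0.32, both partners in one haematopoietic complex. Sox7, Sox17 and Sox18, related endothelial factors, were 10.4-fold, 31.1-fold and 17.2-fold lower, Sox17 being measured on 1 of the E9.5 arrays only. Gata2 (0.55, -0.46 and -1.26), Fli1 (3.51, 0.70 and 1.70) and Egfl7 (3.71, 1.36 and 2.16) were highest at E8.75 but did not meet the rule.

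The 12 names with the largest differences downwards, as ranked by the naming rule, included 10 that were in none of the lists. Lyve1, a hyaluronan receptor of lymphatic and yolk sac endothelium and of macrophages, was at 3.24 at E8.75 and not well above background in the rostral (-6.64) or caudal part (-5.87), at least 233-fold lower. Mrc1, the mannose receptor, was at 0.74 at E8.75 and not well above background at E9.5, at least 41.4-fold lower, and Vsig4, a complement receptor of macrophages, at least 40.8-fold. Stab2, a scavenger receptor, was at 1.72, -4.61 and -4.37 and measured on 1 of the E9.5 arrays. Gpr182, an endothelial receptor, was at 2.68, -3.33 and -4.38 (the last not well above background), and Clec14a, an endothelial lectin, at 1.86, -3.14 and -3.55. In all of these the E8.75 array stood apart from both E9.5 arrays, which is how they were ranked. Csf1r, the macrophage growth factor receptor, was read by a probe that was nearly flat (3.28, 3.78 and 3.64), which is not taken to show its level. The leukocyte marker Ptprc was at -1.70, -2.06 and -1.99 and was not called.

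Genes of the endoderm and yolk sac showed the same direction for most members. Of 25 measured, 11 were called lower (background 1.73%) and 2 higher (2.09%), and the median difference was -1.93. At E8.75, 23 were well above background, against 13 in the rostral and 17 in the caudal part, and the summed levels gave log2 values of 4.95, 3.15 and 3.46. Afp, alpha-fetoprotein, was at 0.44 at E8.75 and not well above background in the rostral (-6.55) or caudal part (-6.57), at least 33.6-fold lower. Apob was at 0.50 and likewise not well above background at E9.5, at least 34.9-fold lower, and Ttr, transthyretin, at -0.58 and at least 16.5-fold lower. Apoa1 was at 0.11, -4.59 and -5.18, at least 26.6-fold lower, and Cubn, the endocytic receptor cubilin, at -1.18 and at least 10.9-fold lower. Dab2, an adaptor of endocytosis, was at 3.52, 0.78 and -0.48. These genes had the E8.75 array highest, as the rule requires, and 3 of the 4 defining endoderm markers, Ttr, Afp and Apoa1, were at background at E9.5. The fourth, Foxa2, was at -0.06, -2.62 and -0.08. The members called higher were Foxa3 (at least 5.50-fold), a hepatic factor, and Cldn4, which also stood among the epithelial genes. Foxa3 was at -6.94 (not well above background), -3.68 and -0.70, and with E8.75 at the dimmest well-above level its rostral difference was only 0.97, so that its call was lost. With the normexp correction, 7 were called lower and 0 higher.

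**Figure D3:**
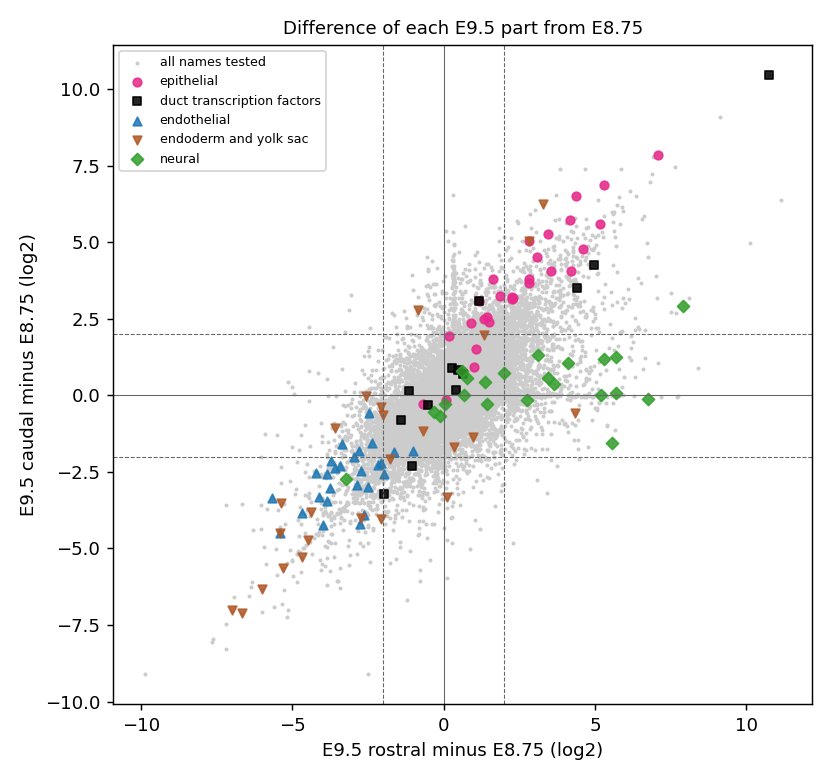
Difference of the rostral (horizontal) and caudal (vertical) E9.5 array from the E8.75 array (log2) for all 29541 names, with 5 gene lists coloured and dashed lines at 4-fold. Epithelial genes lie in the upper right, endothelial and most endoderm genes in the lower left, and neural genes along the horizontal axis; both axes share the E8.75 array.

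Outside these lists, the names with the largest differences upwards included S1pr3, a sphingosine phosphate receptor, at -4.41, 2.13 and 1.34 (70.9-fold). Prdm16, a zinc finger factor, was at least 69.3-fold higher, Map3k21, a kinase, at least 113-fold, and Cpa4, a carboxypeptidase, at least 85.3-fold. Septin4 was at -3.80, 2.02 and 1.79 (52.1-fold), with a second probe that differed by 4.24. Cxcl14, a chemokine, was at least 46.4-fold higher and Ptpn3, a tyrosine phosphatase, at least 37.4-fold. Downwards they included Ctla2a, at 3.88, -2.06 and -1.09 (43.8-fold), Fmo1 (at least 59.7-fold), Cd109 (at least 55.8-fold) and Tfec (at least 32.4-fold).

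Nephrogenic mesoderm genes moved both ways. Of 17 measured, 2 were called higher (background 2.09%) and 4 lower (1.73%), with a median difference of -1.11. Wt1, the regulator of the coelomic and nephrogenic mesoderm used as the second reporter of the series, was at -6.92 at E8.75 (not well above background), -0.20 in the rostral and -1.94 in the caudal part, at least 11.9-fold higher. On the Wt1-GFP arrays it was at 4.08 and 4.01, above both. Among the genes called lower were Foxc2 (1.75, -0.52 and -0.92), Foxc1 (0.12, -2.30 and -5.31, the last not well above background) and Meox1. These encode factors of paraxial and intermediate mesoderm, and the E8.75 array was the highest for each, as the rule requires. Osr1, a defining marker of the early intermediate mesoderm, was at -1.05, -1.04 and -2.67. The brightest probe of Eya1 was nearly flat over the arrays and is not read.

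The Hox genes were followed by paralogue, from anterior (1) to posterior (13). None of the 12 measured names of paralogues 1 to 4 was called. Of 11 names of paralogues 5 to 8, Hoxd8 was called higher, at -0.65, 2.06 and 2.38 (7.33-fold). Of 15 names of paralogues 9 to 13, 2 were called higher (background 2.09%) and 0 lower (1.73%). These were Hoxd9 at 1.89, 4.75 and 4.34 (6.27-fold), and Hoxa11 at -6.48 (not well above background), -1.28 and -0.80, at least 12.2-fold. All 3 had both E9.5 parts above E8.75, as the rule requires. On later Hoxb7-GFP arrays Hoxa11 was at -2.10 in the E10.5 caudal part. It was not well above background in the E10.5 rostral part (-6.74) or at E11.5 (-5.96). On the Wt1-GFP arrays Hoxa11 was at 3.20 in the caudal part and not well above background in the rostral part (-6.10). Hoxd11 was not well above background at E8.75 (-4.74) and was at -4.04 in the rostral and 0.78 in the caudal part, so that only the caudal part passed 4-fold. Hoxc10, at 1.28, -2.39 and 2.85, lay above E8.75 in the caudal and below it in the rostral part. Hoxb9 was at 3.40, 2.60 and 0.60, highest at E8.75.

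Several tail bud and primitive streak genes were at background in the rostral part. Of 21 measured, 13 were below E8.75 in both parts (background 39.9%), and 21 were well above background at E8.75, 15 in the rostral and 19 in the caudal part. The fold rule called 1 lower (background 1.73%), Cdx2, a homeobox factor of the posterior body, at 0.56, -6.61 (not well above background) and -3.03. Cdx1 was at 0.07 at E8.75, not well above background in the rostral part (-4.88), and at 0.10 in the caudal part. Cdx4 was at -0.50, -6.38 and -1.75 and Evx1 at -0.83, -6.32 and -2.12, with the rostral value again at background. For these 4 genes the rostral array was the lowest, while the caudal array came close to E8.75 for Cdx1. T, the brachyury gene, was at -2.94 and not well above background at E9.5.

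Signalling genes gave few calls. Over all names, 2.09% were called higher and 1.73% lower. Of 17 FGF pathway genes, 1 was called lower: Fgf10, a ligand, at 2.40, -1.47 and -2.54 (21.2-fold, limma SE of the log2 difference 0.53, adjusted p = 0.20). Fgf9, another ligand, was at 1.04, -1.55 and -0.92, lower in both parts but under 4-fold in the caudal part. Of 31 Wnt genes, 3 were called higher: Wnt9b, Rnf43 (at least 9.12-fold), which removes Wnt receptors, and Dkk1, a secreted Wnt inhibitor, at 0.09, 2.12 and 3.59. Nkd1, a Wnt feedback inhibitor, was called lower at 1.06, -1.31 and -1.69, although its second probe differed by only -0.38. Sp5 (0.86, -2.42 and -1.09) and Fzd10 (1.48, -1.35 and -0.27) were highest at E8.75 and missed the rule in the caudal part. Of 26 BMP and TGF-beta genes, Bmp5 was called higher (at least 4.57-fold), and Msx1 (0.57, -1.74 and -1.44) and Tgfb1 (at least 8.47-fold) lower. None of 19 Notch, 14 Hedgehog or 16 retinoic acid genes was called.

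The retinoic acid genes differed between the parts. Aldh1a2, which makes retinoic acid in mesoderm, was at 1.30, -0.37 and -1.22, highest at E8.75. Aldh1a3, a related enzyme, was at 2.14 at E8.75, -2.31 in the rostral and 4.39 in the caudal part, on opposite sides by more than 2-fold. Of all names, 0.135% were like it, and 0.359% were higher in the rostral and lower in the caudal part. Aldh1a1 was at -0.38, -0.07 and 4.03, high in the caudal part alone. Cyp26a1, which breaks retinoic acid down, was at 2.17, 0.23 and -0.90.

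Glycolysis genes were lower by small amounts in both parts. Of 22 measured, 18 were below E8.75 in both parts and 1 above, against 39.9% and 36.2% of all names, and 0 were called by the 4-fold rule. The median difference was -1.03, and -0.72 with quantile normalization. Aldoa, the enzyme aldolase, was at 8.54, 7.33 and 7.38, and Pgk1, phosphoglycerate kinase, at 7.67, 6.30 and 6.42. Bnip3, a mitochondrial protein induced by low oxygen, was at 5.40, 3.48 and 3.77, and Slc2a1, a glucose transporter, at 5.26, 3.31 and 4.18. In each, the E8.75 array was the highest and the E9.5 arrays lay closer to one another than to it. Vegfa, at 1.12, 1.08 and 1.55, did not follow.

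Cell cycle and early embryonic genes had a like direction. Of 22 cell cycle genes, 16 were below E8.75 in both parts (background 39.9%), with a median difference of -0.61, and 1 was called higher (background 2.09%). That gene was Ccnd1, cyclin D1, at 2.39 at E8.75, 4.53 in the rostral and 4.54 in the caudal part, 4.44-fold higher, with the E9.5 values nearly equal. Mcm6, a replication helicase subunit, was at 7.41, 5.91 and 6.66, and Mki67, a proliferation marker, at 4.73, 4.55 and 4.66. Of 21 early embryonic genes, 15 were below E8.75 in both parts (background 39.9%, median -0.64) and 0 were called. Lin28a, an RNA-binding protein that blocks let-7 maturation, was at 4.14, 3.02 and 2.20, and Lin28b at 3.03, 0.63 and 2.12.

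**Figure D4:**
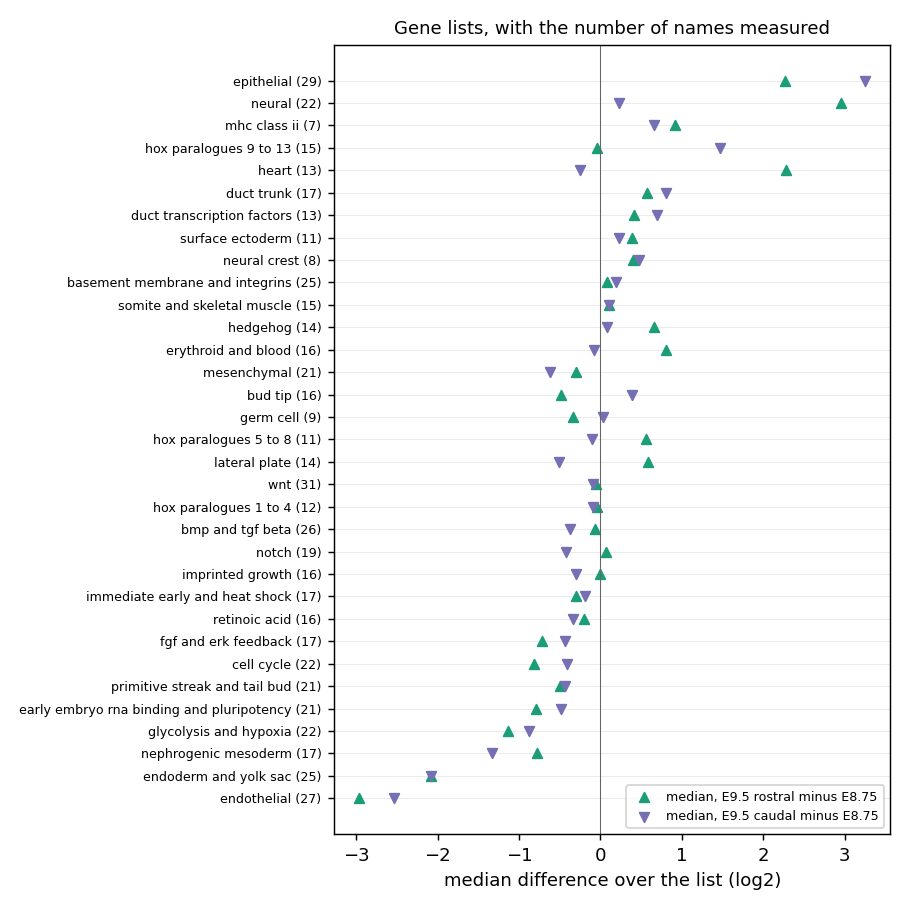
Median difference from E8.75 (log2) over each of 33 gene lists, for the rostral and caudal E9.5 arrays, with the number of names measured in brackets. The epithelial list is highest in the caudal part (3.25) and the endothelial list lowest in both parts (-2.96 and -2.53), while the neural list is at 2.95 in the rostral and 0.23 in the caudal part.

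Neural and heart muscle markers gave few calls, but most were brightest on the rostral E9.5 array. Of 22 neural genes, 1 was called higher (background 2.09%) and 1 lower (1.73%). On the rostral array 18 were brightest (background 37.0%), and 14 were at least 2-fold brighter there than in the caudal part (background 11.1%) and 0 the other way. The median difference was 2.95 in the rostral and 0.23 in the caudal part, and the summed levels gave log2 values of 5.84 at E8.75, 8.51 in the rostral and 6.12 in the caudal part. Nefl, a neurofilament chain, was at 1.34, 6.54 and 1.33, and Tubb3, the neuronal tubulin, at 2.80, 6.45 and 3.17. Elavl3, a neuronal RNA-binding protein, was at -4.29, 1.28 and -5.85 (the last not well above background), and Sox2, a neural progenitor factor, at -3.53, -1.54 and -2.81. Nefm, another neurofilament chain, was called higher, at -4.28, 3.64 and -1.38, and Pax6, a factor of neural progenitors, lower, at -2.89 and not well above background at E9.5. The bound for Pax6 was at least 3.33-fold, so that its call was lost with floored values, as it was with normexp and with the mean of all probes.

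Of 13 heart muscle genes, 10 were brightest on the rostral array (background 37.0%), and the median difference was 2.28 in the rostral and -0.25 in the caudal part. The summed levels gave log2 values of 2.42, 4.56 and 1.13. Tnnt2, cardiac troponin T, was at -3.30, 1.81 and -3.56, and Myh6, a cardiac myosin, at -1.06, 1.19 and -0.78. Tnni1 (-3.37, 0.88 and -0.77) and Ryr2 (at least 6.95-fold) were called higher, 2 of the 13 (background 2.09%). Other lists also had members at least 2-fold brighter in the rostral than in the caudal part (background 11.1%). Among them were 11 of 21 mesenchymal, 7 of 14 lateral plate and 7 of 17 nephrogenic mesoderm genes. The other way there were 5, 3 and 1 (background 6.83%). The part of neurons, heart muscle or other cells in differences on the rostral array only was not tested. The 4-fold rule asks for both parts, and 891 names passed 4-fold upwards in the rostral part only and 602 in the caudal part only.

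**Figure D5:**
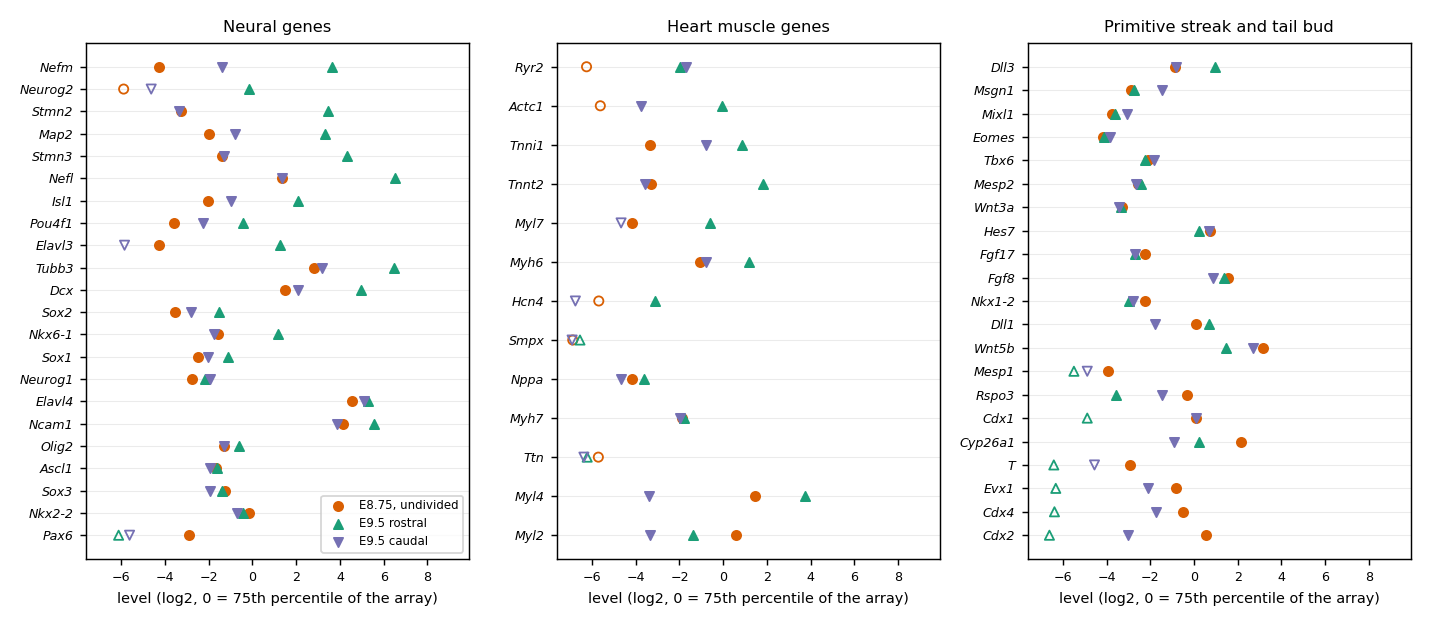
Levels (log2, 0 being the 75th percentile of the array) of 22 neural, 13 heart muscle and 21 primitive streak and tail bud genes on the 3 arrays, open points being not well above background. Nefl, Tubb3 and Tnnt2 stand out on the rostral E9.5 array, and Cdx2, Cdx4 and Evx1 are at background there.

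Of the embryonic globins, Hbb-y was called higher. It was at -0.57 at E8.75, 3.06 in the rostral and 4.27 in the caudal part, 18.8-fold higher, with a limma SE of the log2 difference of 2.24 (adjusted p = 0.43). Hbb-bh1, at -0.68, 1.08 and 2.27, and Hba-x, at -0.41, 0.72 and 1.85, were not called. Of 16 erythroid and blood genes, 2 were called higher (background 2.09%) and 0 lower (1.73%). The 2 were Hbb-y and Slc4a1, the anion exchanger of red cells (-2.13, 0.10 and 0.19). Of the defining erythroid markers, Gata1 was well above background on 2 of the 3 arrays (-4.56, -3.37 and -6.60 in the caudal part, where it was not), and Alas2, the first enzyme of haem synthesis in red cells, was at -1.77, -0.66 and -3.12. Globin genes are near-identical copies in places, so that 1 probe may read more than 1 of them.

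The shares called over all names, 2.09% higher and 1.73% lower, are the background for each list that follows. Of 7 MHC class II genes, 2 were called higher, H2-DMb1 (at least 19.2-fold) and H2-DMb2, at -1.76, 2.95 and 2.76, which are near-identical copies. Of 17 immediate early and heat shock genes, 2 were called higher and 2 lower. Jun was at -1.28, 1.08 and 1.24 and Egr2 was at least 19.8-fold higher, whereas Atf3 was at 0.51, -2.70 and -2.58 and Klf2 at 0.91, -1.75 and -1.82. Of 8 neural crest genes, Erbb3, a neuregulin receptor, was called higher at -4.29, -0.48 and 0.80, while the defining marker Sox10 was at -3.85, -3.50 and -3.96. Phlda2, an imprinted growth inhibitor, was the 1 called gene of 16 imprinted ones, at -1.16, -3.86 and -4.56. Of 14 lateral plate genes, Tbx3 was called higher (-0.16, 1.85 and 2.92), and Fgf10 and Pitx1 lower. Pitx1, a hindlimb factor, was at -0.61, -6.64 (not well above background) and -4.18. Of 11 surface ectoderm genes, Cldn6 and Dlx5 (4.95-fold) were called higher. Of 9 germ cell genes, Ddx4 (at least 2.45-fold) and Dppa5a (at least 1.08-fold) were called lower, but 0 were with floored values, with normexp or where all 3 arrays were well above background. Of 15 somite and skeletal muscle genes, Foxc2 and Meox1 were called lower.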

How the data were processed

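Sorted cells were measured on 1-colour Agilent arrays after amplification of 10 ng of total RNA, per the labels' protocols. Per the file headers, the deposited intensities are processed signals of Agilent Feature Extraction 10.7.3.1, background-subtracted and detrended within an array. The deposited matrix of log2 values states no scale. It followed the scanner levels below, centred on each probe's median, at r = 0.9998 (largest absolute probe median 0.005), and served as an alternative.

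Of 62976 spots, 59305 were not controls. Outlier spots were left out and the spots of a probe averaged (55663 probes). Names came from RefSeq accessions for 26755 probes, from symbols for 3817, and 25091 kept their own name. Each level is log2 of the signal over the array's 75th percentile signal. A gene with several probes was read by the brightest. Any probe that was well above background on an array entered the fit, made with limma 3.58.1 in R 4.3.3 (version 1.17.8 of data.table) over 5 groups with a position term (0.5 rostral, -0.5 caudal, 0 undivided), and Benjamini-Hochberg adjustment. The E8.75 group, with 1 array, was assumed to vary like the others. A probe not well above background on the arrays of a group has only a bound there. The number of arrays limits the precision.

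The members, the 33 lists, the 4-fold rule and the naming rule (label genes, the largest differences, up to 4 called or the 2 brightest members of each list, and genes on opposite sides of E8.75) were chosen with earlier results of these data known. Members named beyond that rule, and the promoter motifs, were picked after their values were seen. The fit was tested on simulated data. Some members that enter the counts are not reported here by name.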

Additional observations from a re-analysis of the deposited data

Results flagged for a closer look

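By raw levels, the rostral and caudal E9.5 arrays lay on opposite sides of E8.75, each by at least 2-fold, for some names. Of these, 106 (0.359%) were higher in the rostral and lower in the caudal part and 40 (0.135%) the other way. The 10 described here are the 5 protein-coding genes in each direction whose nearer part lay farthest from E8.75, and the difference between the parts was not tested, there being 1 array of each.

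Higher in the rostral part were Scrn1, with a rostral minus caudal level of 6.62 (log2), Mapk8ip2 with 6.05, Agap2 with 5.83 and Igsf21 with 4.59. Scrn1, Agap2 and Igsf21 were not well above background in the caudal part. With floored values their caudal differences from E8.75 were -2.65, -0.9 and -0.84. Agap2 and Igsf21 were then under 2-fold in that part. Myl4, an atrial and embryonic myosin light chain, differed by 7.11, and went with the other heart muscle genes described for the rostral array.

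Higher in the caudal part were Aldh1a3, a retinoic acid enzyme, with a rostral minus caudal level of -6.70, Jaml with -6.34, Qrfprl with -5.92, Glp1r with -3.82 and Trim12c with -3.79. Jaml, Qrfprl and Trim12c were not well above background in the rostral part. With floored values the rostral difference of Trim12c from E8.75 was -0.61, which is under 2-fold. Other probes of Trim12c were at -3.55, -2.97 and -3.44 and at -2.77, -2.45 and -3.29, each highest in the rostral part. The pattern of Trim12c therefore depended on the probe. On the E10.5 arrays, which are separate samples, Aldh1a3 was at 0.76 in the rostral and 4.04 in the caudal part.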

How the results depend on the processing

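The count of names past limma's adjusted p of 0.05 was 0 and stayed 0 with quantile normalization, the deposited matrix, the filters on dim probes, floored values, the mean of all probes, the slide row as a block, the 3 arrays alone and each array but E8.75 left out. It was 167 (52 higher) with normexp, 16 without the position term and 376 with the intensity trend. With that trend it ran from 0 to 607 as each array but E8.75 was left out: 2 without the rostral and 0 without the caudal E9.5 array, 0 when an E10.5 array was dropped, 175 without the bud array, and 607 and 556 without the rostral and caudal Wt1-GFP array. A slide row block brought the trend's count to 0.

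The fold rule called 618 names higher and 512 lower. It called 78 and 111 with normexp, which put the share of higher calls at 41.3% against 54.7%, 247 and 179 where all 3 arrays were well above background, and 406 and 336 with floored values. Under 2-fold it called 1815 and 1811, under 8-fold 247 and 173. With the rostral array left out it called 1258 and 977, with the caudal left out 1524 and 927, and on the mean of both parts 916 and 787. The filter, the floor and the stricter fold test fewer or smaller differences by construction, and leaving out an array removes the demand for agreement; the cause of the fall with normexp was not tested. The other settings kept both counts within 1.5 times. Normexp moved 67 of 112 named differences by more than the spread between the parts, Tfap2b to 6.05, Lyve1 to -5.52 and Afp to -2.85, and none of the named genes that were called changed direction under these settings. The median of all names was -0.01, 0.01 with normexp and -0.03 with quantile normalization. No paired analysis was possible because the labels give no replicate numbers. Signal over background limits every gene at background in a group to a bound.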
